A study of Rattus norvegicus with 232 samples.

Results

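The features examined here were all of the RNA features of the rat brain transcriptome assembly (v5 reconstruction) that carried the name Xpo1, Mettl27 or Ascc1. They numbered 18 of 99376 reconstructed genes, with 4 named Xpo1, 4 named Mettl27 and 10 named Ascc1, and they contained 69 of the 168416 reconstructed transcripts. The 3 genes were selected on measured values, chosen by the BN-Lx/Cub minus SHR/OlaIpcv contrast of the v5 features, in which 1 feature of each gene stood among the most widely separated. The values of these progenitor animals are therefore given as a description, the count of features that passed this contrast describes the choice alone, and the tests of the 3 genes that bear on a result were made among other animals. The questions were whether the progenitor difference belonged to a single assembled feature or to the whole gene, and how it was distributed among the recombinant inbred strains.

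Xpo1 encodes exportin 1 (CRM1), the receptor that carries proteins with leucine-rich export signals, and several classes of RNA, out of the nucleus. Ascc1 encodes a subunit of the activating signal cointegrator 1 complex, which acts in transcription and DNA alkylation repair, and whose helicase partner also separates collided ribosomes. Mettl27 encodes a methyltransferase-like protein whose human counterpart lies in the interval deleted in Williams-Beuren syndrome. A reconstructed feature is a group of overlapping transcripts assembled from reads, so several features can carry the name of 1 gene, and a feature can carry a name without containing any exon of the annotated gene.

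The HXB and BXH recombinant inbred strains descend from reciprocal crosses of SHR/OlaIpcv, the spontaneously hypertensive rat, and BN-Lx/Cub, a Brown Norway strain that carries the polydactyly-luxate syndrome. After inbreeding, each of these strains is fixed for 1 progenitor's allele at nearly every locus. The v5 feature table held 135 untreated animals of 45 inbred strains. These were 20 HXB and 10 BXH strains (90 animals), the 2 progenitors with 3 animals each, and 13 classic inbred strains (39 animals), with 3 animals per strain. The v5 transcript and Ensembl tables held 133 and 132 of these animals, with 2 in BXH6/Cub and BXH9/Cub and, in Ensembl, in LE/Stm. The sampled tissue was brain, from male rats where the labels give a sex, and the later v7.1 gene table extended the panel to 74 strains. All values are regularized log values on a log2 scale without the read counts behind them, so sequencing depth is unknown and no counting interval can be given. In bulk tissue, fewer cells of a type and less RNA per cell cannot be told apart.

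By the batch field of the labels, BN-Lx/Cub and SHR/OlaIpcv shared none of the 13 sequencing batches of the v5 feature table. Batch and strain therefore cannot be told apart in the progenitor comparison of that table. The title of 1 sample of SHR/OlaIpcv 3 instead gives the batch of BN-Lx/Cub 3. The median value of a library lay between 3.52 and 4.10. Libraries were compared over 10294 other features, which were themselves selected for a strain effect in the HXB/BXH libraries, so that agreement within those strains was partly set by the selection. Over these features 127 of the 135 libraries lay closest to another library of their own strain, including 90 of 90 HXB/BXH and 6 of 6 progenitor libraries. Of the 8 that did not, 5 were F344 or LEW libraries closest to a substrain and SHRSP/A3NCrl 3 lay closest to SHR/OlaIpcv. F344/NCrl 2 and SHRSP/A3NCrl 1 lay closest to BXH strains, and the count of calls among classic strains is given with and without them. Neuronal markers averaged 12.0 to 15.4 in the v7.1 table, and the 4 liver markers averaged 5.35 to 11.5, with 1 animal reaching 23.2 for a liver marker.

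In all 3 genes the feature with the large progenitor difference contained no base of the gene's own reference transcript. The Xpo1 split feature (PRN6.5G0177854; gene ENSRNOG00000009935) lay on the plus strand of chromosome 14 from 107940199 to 107957031 in the rn6 assembly. It had 2 exons of 229 and 10 bases and ended 50.693 kb before the start of the reference Xpo1 transcript. Its longer exon was shared with a second Xpo1 feature (PRN6.5G0177853) of 10 transcripts, which spanned 333.859 kb and held no Xpo1 reference exon either. In the RefSeq annotation of the GRCr8 assembly the next protein-coding gene after Xpo1 is Usp34, a ubiquitin-specific protease, and no v5 feature carried that name.

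The Mettl27 split feature (PRN6.5G0158203; ENSRNOG00000046700) lay on the minus strand of chromosome 12 between 24768165 and 24796428. Its 2 transcripts joined a common 150-base exon, upstream of the annotated start, to an exon of 120 or 77 bases lying between reference exons. The common exon was also part of PRN6.5G0158206 and PRN6.5G0158208, a pair of further Mettl27 features without reference bases. Only PRN6.5G0158201 held the reference transcript of 5 exons and 762 bases.

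The Ascc1 split feature (PRN6.5G0218777; ENSRNOG00000056647) spanned 29573630 to 29681718 of the plus strand of chromosome 20. It joined a 43-base exon inside the gene to an exon of 3030 bases beyond the annotated end at 29648893. That long exon overlapped 6 other Ascc1 features, and the split feature shared 3019 exon bases with PRN6.5G0218768, which held the reference transcript among 36 assembled ones. It also overlapped 1104 bases of an unnamed feature and 245 bases of a Chst3 feature, both on the opposite strand, and libraries were stranded. Reads from bases shared by several features were divided among them by the authors' quantification, so such features were not measured independently.

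**Figure D1:**
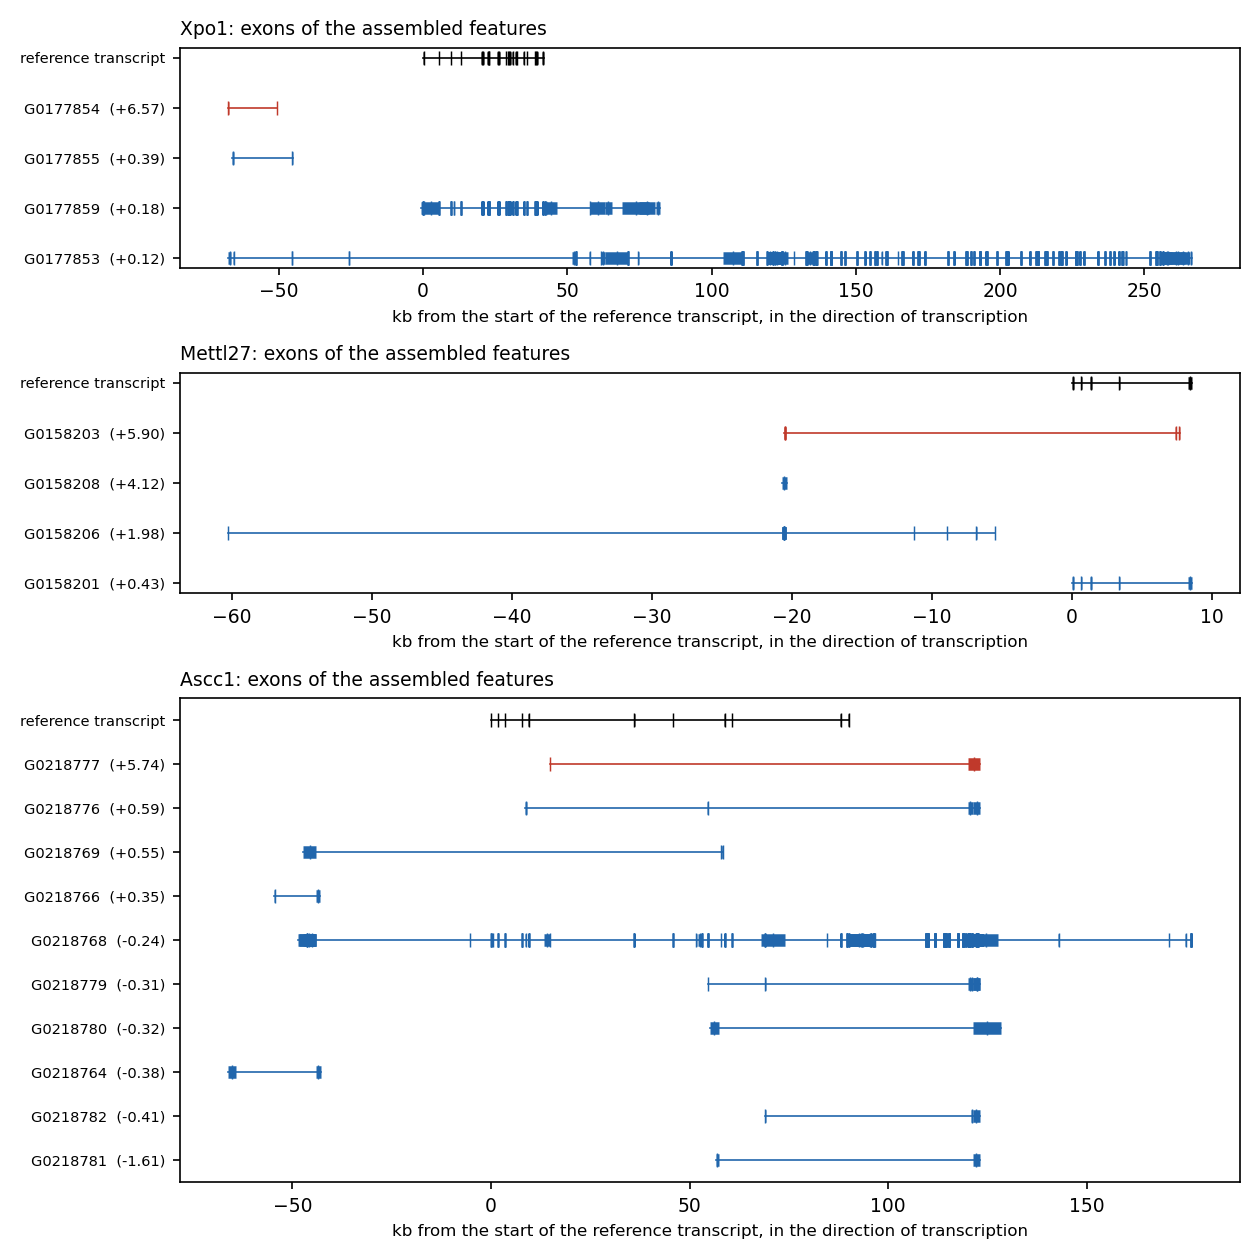
Exons (vertical marks and blocks) of each v5 feature named Xpo1, Mettl27 or Ascc1 against the distance in kb from the start of the reference transcript (black), in the direction of transcription. The number beside each feature is its BN-Lx/Cub minus SHR/OlaIpcv difference (log2). The split features (red, +6.57, +5.90 and +5.74) share no exon base with the reference transcripts.

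The Xpo1 split feature had values of 10.14, 10.08 and 10.58 in the 3 BN-Lx/Cub animals and 4.50, 3.87 and 2.71 in the 3 SHR/OlaIpcv animals. The means were 10.27 ± 0.27 and 3.69 ± 0.90 (SD, n = 3 each), a difference of 6.57. The feature holding the reference Xpo1 transcript (PRN6.5G0177859) had 11.96, 12.24 and 12.13 in BN-Lx/Cub and 11.95, 12.02 and 11.83 in SHR/OlaIpcv. The groups of this reference-holding feature overlapped, with a difference of 0.18. Reference exons made up 12.7% of its exon bases. At the transcript level its reference transcript (PRN6.5T0132525) had 11.30 to 11.58 against 10.92 to 11.18, without overlap (difference 0.37). PRN6.5T0132522 and PRN6.5T0132523 of the same feature did not overlap either and were lower in BN-Lx/Cub (-0.33 and -0.36). For the remaining Xpo1 features, PRN6.5G0177853 and PRN6.5G0177855, the differences were 0.12 and 0.39.

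In Mettl27 the split feature had values of 9.81, 8.43 and 9.06 in BN-Lx/Cub and 3.09, 3.91 and 2.60 in SHR/OlaIpcv. The means were 9.10 ± 0.69 and 3.20 ± 0.66 (SD, n = 3 each), and the difference was 5.90. Both other features with the 150-base exon were also higher in every BN-Lx/Cub animal. PRN6.5G0158208 had 10.53, 8.68 and 8.97 against 6.45, 4.06 and 5.30, a difference of 4.12. PRN6.5G0158206 had 12.91, 11.40 and 11.32 against 10.25, 10.81 and 8.62, a difference of 1.98. The reference-holding feature had 5.59, 5.20 and 4.54 against 4.49, 4.81 and 4.73, so that its groups overlapped and differed by 0.43. At the transcript level its only transcript (PRN6.5T0118822) had 4.88 to 5.39 against 4.20 to 4.79, without overlap (difference 0.75).

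The Ascc1 split feature had values of 8.47, 10.01 and 9.78 in BN-Lx/Cub and 4.48, 3.29 and 3.27 in SHR/OlaIpcv. Means of 9.42 ± 0.83 and 3.68 ± 0.69 (SD, n = 3 each) gave a difference of 5.74. The reference-holding feature had 13.73, 14.46 and 14.31 against 14.78, 13.97 and 14.48, with overlapping groups and a difference of -0.24. Reference exons made up 4.55% of the exon bases of this feature, so its value is not that of the reference transcript alone. Its reference transcript (PRN6.5T0161743) had 8.85 to 9.42 against 8.43 to 9.13, which overlapped too (difference 0.31). The other 8 Ascc1 features overlapped between the progenitors as well, and the one with the widest difference was PRN6.5G0218781 (-1.61).

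In all, the groups did not overlap in 5 of the 18 features, against 18.8% of all 99376 features. The limma contrast passed a 5% false discovery rate in 4 of the 18, against 2.1% of all features in either direction, and since this contrast chose the genes neither count is evidence about them.

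**Figure D2:**
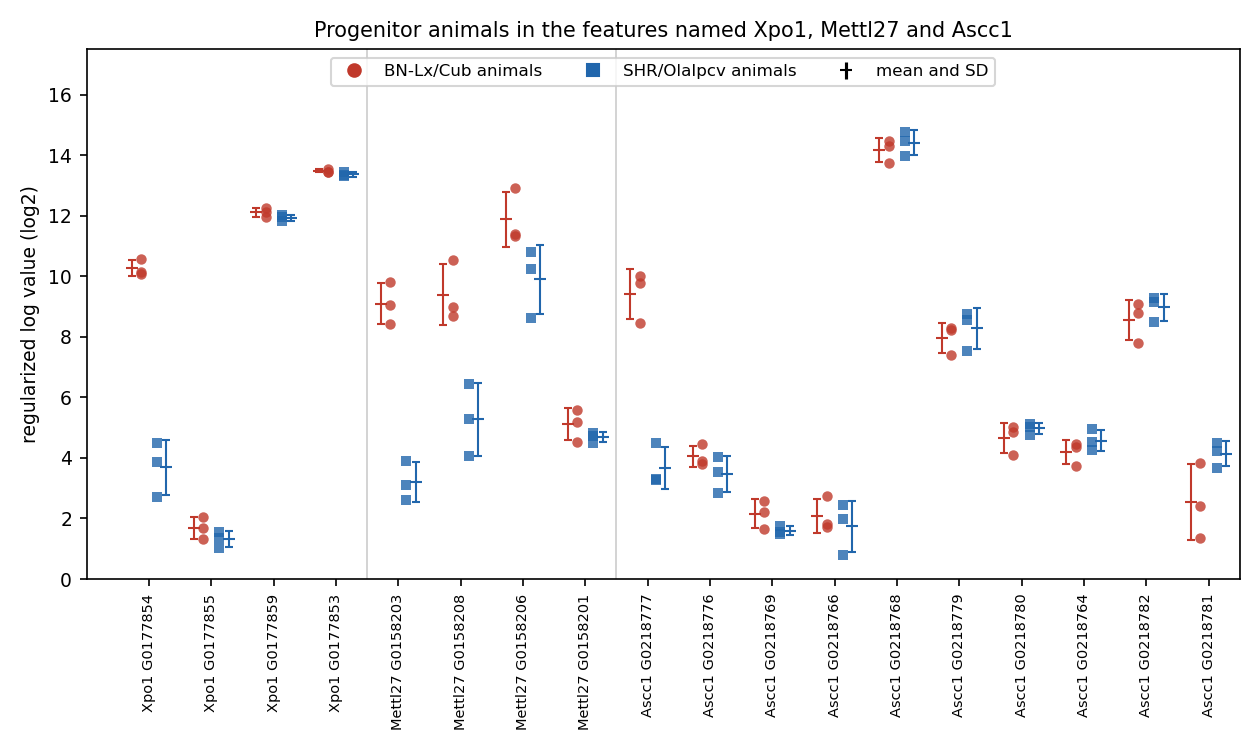
Regularized log values (log2) of the 3 BN-Lx/Cub animals (red circles) and the 3 SHR/OlaIpcv animals (blue squares) in each of the 18 features, with means and SD beside them. The split features stand first in each gene, and the features that hold the reference transcripts (G0177859, G0158201, G0218768) differ by 0.18, 0.43 and -0.24.

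Among the recombinant inbred strains the split feature of Ascc1 was distributed differently from those of Xpo1 and Mettl27. The animals of these strains entered neither progenitor mean, although they entered the estimate of spread in the contrast fitted over all strains. A strain was placed on the BN-Lx side where its mean lay on the same side of the midpoint of the progenitor means as BN-Lx/Cub. For the split features this was above the midpoint, and where BN-Lx/Cub was the lower progenitor it was below. Strain effects were tested with limma's moderated F-test on the 30 strains, fitted across all features of the table with Benjamini-Hochberg adjustment, and broad-sense heritability is given as the R2 of strain.

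Not 1 of the 30 HXB/BXH strains lay on the BN-Lx side for the Xpo1 split feature (0%; 95% Clopper-Pearson interval 0% to 11.6%). The 90 animals ranged from 2.34 to 5.33, all below the midpoint of 6.98 and all far below the lowest BN-Lx/Cub animal. Strain means ran from 3.08 to 4.77, and the strain effect did not pass the test (R2 0.362, adjusted p = 0.526). A difference present between the progenitors was thus not seen in any of their recombinant strains.

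The same count was obtained for the Mettl27 split feature, with 0 of 30 strains on the BN-Lx side (95% Clopper-Pearson interval 0% to 11.6%), strain means of 2.51 to 5.66 and a midpoint of 6.15. Its strain effect did not pass (R2 0.237, adjusted p = 0.932). Single animals of 2 strains lay above the midpoint. BXH9/Cub 3 had 10.56, above every BN-Lx/Cub animal, while the other animals of that strain had 3.18 and 3.23. HXB29/Ipcv 2 had 6.18.

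The Ascc1 split feature divided the panel. There were 16 of 30 strains on the BN-Lx side (53.3%, 95% Clopper-Pearson interval 34.3% to 71.7%), and no strain mean lay between 6.27 and 9.50. All 16 exceeded the BN-Lx/Cub mean. The strain effect had an R2 of 0.897 and an adjusted p of 8.03e-19, and it passed under every alternative tried, with adjusted p up to 1.46e-08. The upper group, whose strain means reached 10.86, was formed by HXB2/Ipcv, HXB3/Ipcv, HXB5/Ipcv, HXB7/Ipcv, HXB10/Ipcv, HXB13/Ipcv, HXB21/Ipcv, HXB22/Ipcv, HXB24/Ipcv and HXB29/Ipcv and by BXH3/Cub, BXH8/Cub, BXH10/Cub, BXH11/Cub, BXH12/Cub and BXH13/Cub. The lower group was less uniform, with animals from 3.11 to 7.32. In BXH5/Cub, BXH9/Cub and HXB4/Ipcv 1 animal, and in BXH6/Cub and HXB15/Ipcv 2 of the 3 animals, crossed the midpoint of 6.55, and 55 of the 90 animals lay above it.

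The upper group held 10 of 20 HXB and 6 of 10 BXH strains, which did not differ in Fisher's exact test (two-sided p = 0.709, adjusted over 3 features p = 1). With 0 of 20 and 0 of 10 strains on the BN-Lx side, the split features of Xpo1 and Mettl27 allowed no such comparison.

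**Figure D3:**
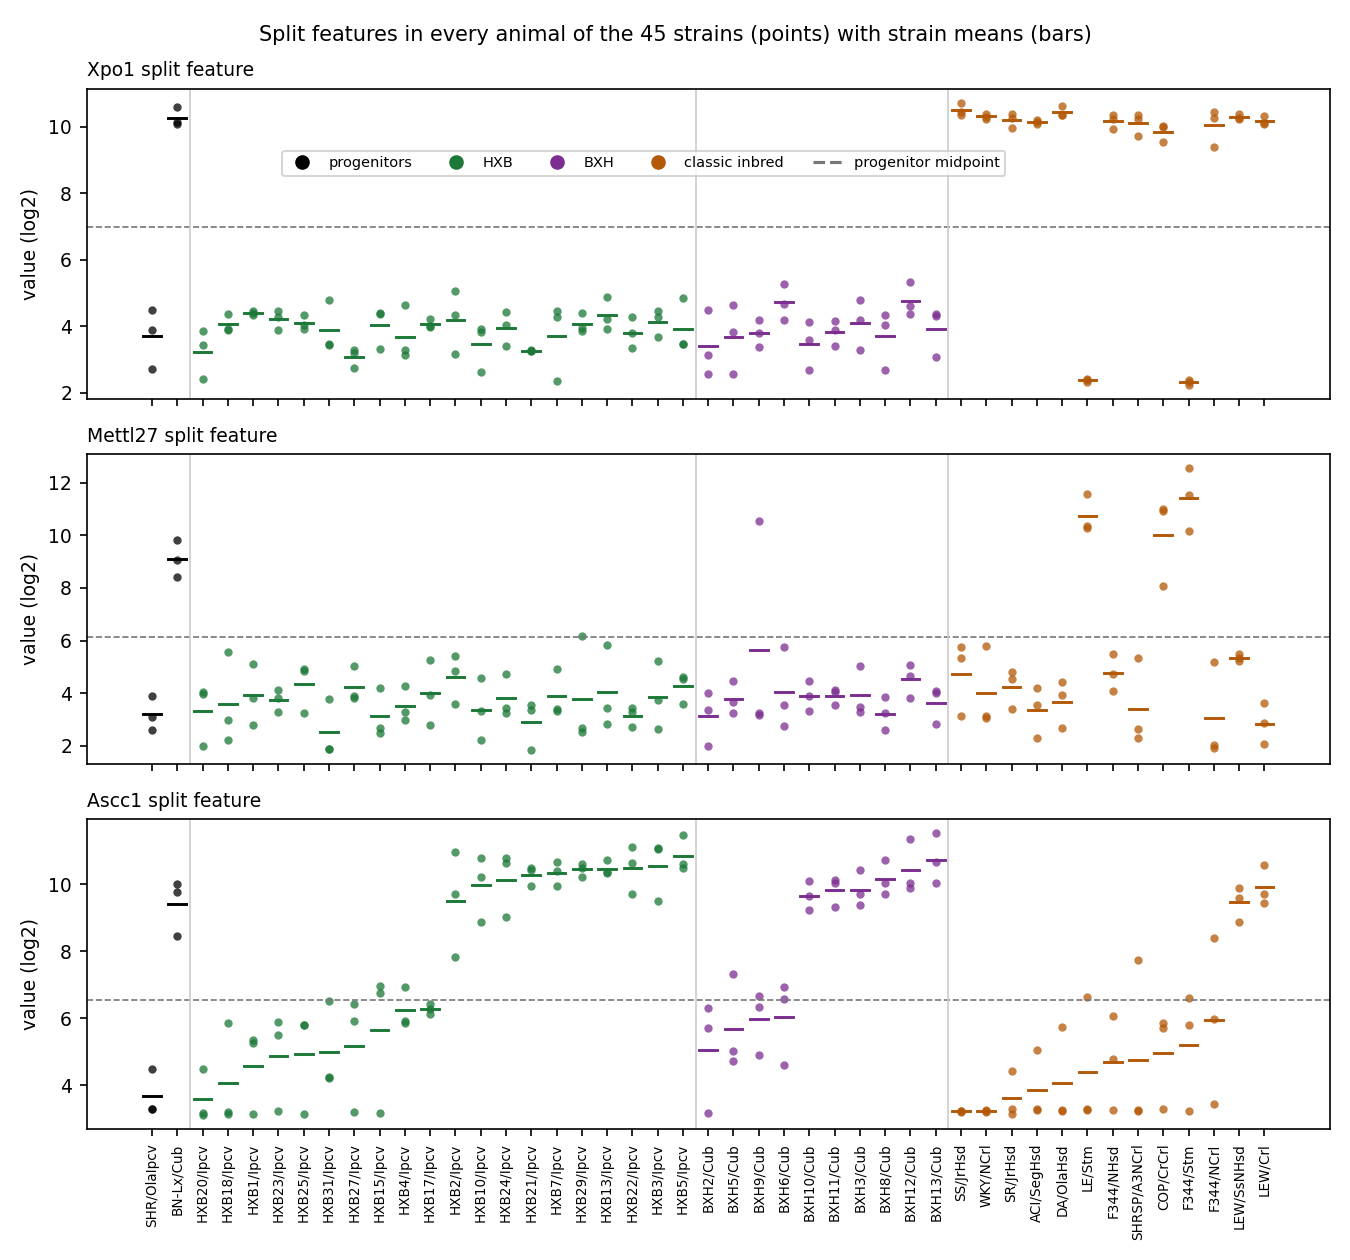
Values (log2) of the 3 split features in every animal (points) of the 2 progenitors, 20 HXB, 10 BXH and 13 classic strains, with strain means (bars) and the progenitor midpoint (dashed). Strains are ordered within each group by their Ascc1 mean. Xpo1 and Mettl27 stay below the midpoint in all 30 HXB/BXH strain means, Ascc1 lies above it in 16 of 30, and 11, 3 and 2 classic strains lie above it for Xpo1, Mettl27 and Ascc1.

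The split features were also set side by side within sequencing batches. In batch 3 the BN-Lx/Cub animals had 10.08 and 10.14 for the Xpo1 split feature, while 13 HXB/BXH animals ranged from 3.60 to 4.80. For the Mettl27 split feature the same animals gave 8.43 and 9.81 against 2.76 to 5.02. For Ascc1, 12 of those 13 animals lay on the BN-Lx side, although 5 of the 13 belonged to strains of the lower group. These were BXH5/Cub 1 (7.32), BXH6/Cub 1 and 2 (6.95 and 6.56) and BXH9/Cub 1 and 2 (6.33 and 6.66), and the animals of the same strains in other batches were lower, at 4.72 and 5.03 in BXH5/Cub, 4.60 in BXH6/Cub and 4.91 in BXH9/Cub. The part of batch in these values was not tested. Animals of both sides were found in 7 of the 7 batches with HXB/BXH animals for Ascc1, in 1 of 7 for Mettl27 and in 0 of 7 for Xpo1.

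Among all 18 features, the strain effect passed in 2 within the HXB/BXH panel, against 10.4% of all features, and their median R2 was 0.364 against 0.371 for all. These were the Ascc1 split feature and the reference-holding Mettl27 feature (R2 0.794, adjusted p = 3.47e-10). The reference-holding Ascc1 feature (PRN6.5G0218768, R2 0.435, adjusted p = 0.328) passed only with sequencing batch as a covariate (adjusted p = 0.0167) or with a replicate block (adjusted p = 0.0146), among the alternatives tried. No Xpo1 feature passed. None of the 18 differed between HXB and BXH strain means by limma (0 of 18), where 0.534% of all features passed. At an unadjusted p under 0.05 in the same limma test there were 2 of the 18, beside 10618 of all 99376 features. The smallest adjusted p was 0.252, for PRN6.5G0218781 (HXB minus BXH 0.64 ± 0.23 SE), and for the Ascc1 split feature the difference was -0.67 ± 0.98 SE (adjusted p = 0.860).

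The 13 classic inbred strains also entered neither progenitor mean. The sets of strains with large values differed between the split features but overlapped, with COP/CrCrl high for Xpo1 and Mettl27, and LEW/Crl and LEW/SsNHsd high for Xpo1 and Ascc1. Strain effects passed in 6 of the 18 features, against 8.08% of all features: 1 Xpo1, 2 Mettl27 and 3 Ascc1 features.

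For the Xpo1 split feature 11 of the 13 classic strains lay on the BN-Lx side, with animals between 9.40 and 10.7. Among these was SHRSP/A3NCrl, the stroke-prone relative of SHR/OlaIpcv, with 9.73, 10.35 and 10.23. F344/Stm (2.33, 2.23 and 2.38) and LE/Stm (2.42, 2.32 and 2.39) lay below all other classic animals, although the substrains F344/NCrl and F344/NHsd were high. Within strains the animals were close together, and the strain effect had an R2 of 0.996 (adjusted p = 7.75e-24). The animals of both Stm strains were in batches 13 and 14, which held no other strain in the v5 feature table, so that batch and strain cannot be told apart for them. In batch 10 the 5 HXB/BXH animals had 2.56 to 4.04 and the 12 classic animals 9.40 to 10.5. This batch is that of the labels' batch field, while the sample titles place these HXB/BXH and classic animals in different batches.

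For Mettl27 the high strains were F344/Stm (11.52, 12.56 and 10.18), LE/Stm (10.37, 10.28 and 11.56) and COP/CrCrl (10.92, 8.09 and 11.02). The other 10 had no strain mean above the midpoint. The strain effect had an R2 of 0.900 (adjusted p = 1.86e-08), and the neighbouring PRN6.5G0158208 passed as well (R2 0.751, adjusted p = 0.000468). That second call was lost with batch as a covariate (adjusted p = 0.0724) and without replicate 1 or 2 (adjusted p up to 0.140). PRN6.5G0158206 did not pass (adjusted p = 0.207) but did with batch as a covariate (adjusted p = 0.0425) or without replicate 3 (adjusted p = 0.00325). The reference-holding PRN6.5G0158201 (adjusted p = 0.0703) passed only with the filter at the median (adjusted p = 0.0399). The Stm strains were thus low for Xpo1 and high for Mettl27, the reverse of most classic strains.

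For Ascc1 the upper strains were LEW/Crl (9.71, 10.58 and 9.45) and LEW/SsNHsd (8.89, 9.59 and 9.91). The remaining 11 strain means lay at or below 5.93. Single animals of 4 of those strains crossed the midpoint, with F344/NCrl 2 at 8.39 and SHRSP/A3NCrl 1 at 7.74 the farthest. These are the libraries that lay closest to BXH strains, and without them 6 of the 18 features still passed. Over all alternatives tried, 4 to 7 of the 18 passed. The strain effect of the Ascc1 split feature (R2 0.748, adjusted p = 0.000541) was lost without replicate 2 or 3 (adjusted p = 0.0742 and 0.0728). PRN6.5G0218782 (R2 0.806, adjusted p = 3.64e-05) and PRN6.5G0218779 (R2 0.650, adjusted p = 0.0135), which share the long exon, passed too, and each was lost without replicate 3 (adjusted p = 0.0633 and 0.118), the latter also without replicate 1 (adjusted p = 0.385).

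At the transcript level, assembled transcripts that carried the name Ascc1 differed between the strains in opposite directions. Among HXB/BXH strains 19 of the 69 transcripts passed the strain test, against 9.48% of all transcripts, comprising 17 of 43 for Ascc1, 1 of 8 for Mettl27 and 1 of 18 for Xpo1. The count was 11 without the animals numbered 1. Of the 33 measured transcripts in the reference-holding Ascc1 feature 15 passed, of which 11 had a lower and 4 a higher mean in BN-Lx/Cub than in SHR/OlaIpcv. The progenitor values did not overlap in 9 of those 11 and in 2 of those 4, against 18.3% of all transcripts. Since the progenitor contrast chose the genes, these counts are not evidence about them. Each of the 4 higher ones lost its call without 1 or more of the replicate numbers. Without replicate 1 these were PRN6.5T0161746, PRN6.5T0161753 and PRN6.5T0161766 (adjusted p = 0.146, 0.184 and 0.122), and without replicate 2 PRN6.5T0161757 was lost as well (adjusted p = 0.165), with PRN6.5T0161746 and PRN6.5T0161766 lost without any 1 of the 3 numbers. Among the 11 lower ones, PRN6.5T0161738 lost its call without replicate 3 (adjusted p = 0.165) and PRN6.5T0161775 without replicate 1 (adjusted p = 0.137). PRN6.5T0161756 lost its call without replicate 1 or 3 (adjusted p = 0.262 and 0.0940). Of the 15, 14 contained no reference exon base.

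The transcript of the split feature (PRN6.5T0161751) had 8.45, 10.02 and 9.29 in BN-Lx/Cub and 4.18, 3.24 and 3.23 in SHR/OlaIpcv. PRN6.5T0161767, of 3 exons and 2263 bases, was its mirror image, with 3.10, 3.10 and 3.84 against 10.99, 9.15 and 10.98, a difference of -7.02. Over the 30 strains its means ran from 3.45 to 10.15 with none between 5.03 and 7.61, and each strain stood on the same progenitor's side as in the split feature, 30 of 30. Its strain effect had an R2 of 0.925 (adjusted p = 1.44e-21), and over the 30 strain means it correlated with the split feature at r = -0.97. The transcripts share 2055 exon bases and their reads were apportioned jointly, so that this opposition is not a pair of independent measurements.

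PRN6.5T0161781, of 13 exons and 6115 bases lying wholly beyond the annotated end of Ascc1, followed the same division. It had 2.80, 4.48 and 4.47 in BN-Lx/Cub and 9.08, 7.97 and 7.78 in SHR/OlaIpcv, with no HXB/BXH strain mean between 5.72 and 8.63 (R2 0.922, adjusted p = 4.67e-21). Matching sides in 30 of 30 strains were also found for PRN6.5T0161770 and PRN6.5T0161771, whose progenitor differences were -1.87 and -1.93. Of the 15 passing transcripts 12 correlated negatively with the split feature and 3 positively. All 15 shared 840 to 2974 exon bases with the split transcript (2921 in PRN6.5T0161781, 2065 in PRN6.5T0161770 and 2937 in PRN6.5T0161771). Their reads were apportioned jointly with it, so neither the matching sides nor the correlations are independent measurements. The gene after Ascc1 in the GRCr8 RefSeq annotation is Spock2, a secreted proteoglycan of the extracellular matrix, and no v5 feature carried its name.

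Transcripts of Xpo1 and Mettl27 were placed by their own progenitor midpoints. The single transcript of the Xpo1 split feature differed by 6.56 between the progenitors and stood on the BN-Lx side in 0 of 30 strains. Both transcripts of the Mettl27 split feature (differences 5.34 and 5.93) and a pair in the neighbouring features (4.23 and 4.29) also gave 0 of 30. The transcript values lacked BXH9/Cub 3, the animal with 10.56 for the Mettl27 split feature. The other transcripts of PRN6.5G0158206, with smaller progenitor differences of 1.99, 2.41 and 1.64, stood on the BN-Lx side in 24, 13 and 8 of 30 strains, and none of them had a strain effect that passed. Progenitor values did not overlap in 8 of 8 Mettl27, 5 of 18 Xpo1 and 13 of 43 Ascc1 transcripts, against 18.3% of all transcripts. The progenitor contrast chose the genes and the transcripts share reads, so these counts are not evidence about the genes. The Xpo1 transcript with a strain effect was PRN6.5T0132519 (adjusted p = 0.0255), whose progenitors overlapped (3.26 ± 0.70 and 3.34 ± 0.29, SD, n = 3 each) while HXB/BXH means ran from 2.01 to 6.69. That call was lost without replicate 1 or 2 (adjusted p = 0.472 and 0.718). The Mettl27 transcript with a strain effect was the reference transcript PRN6.5T0118822 (R2 0.744, adjusted p = 3.02e-07), whose call was lost without replicate 1 (adjusted p = 0.0522).

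The whole genes differed far less between the progenitors than the split features did. In the v7.1 RefSeq table, where SHR/OlaIpcv had 2 animals, whole-gene Xpo1 had 12.06, 11.87 and 11.84 in BN-Lx/Cub and 11.63 and 11.76 in SHR/OlaIpcv. Whole-gene Ascc1 had 9.28, 9.17 and 9.27 against 9.38 and 9.42. Whole-gene Mettl27 had 6.74, 6.99 and 6.66 against 6.09 and 5.82, a difference of 0.84. In the v5 Ensembl 96 table, Xpo1 averaged 11.87 ± 0.05 against 11.90 ± 0.23, Ascc1 9.45 ± 0.11 against 9.37 ± 0.07 and Mettl27 5.07 ± 0.15 against 4.72 ± 0.13 (SD, n = 3 each). The sign of the Xpo1 and Ascc1 differences thus changed between the tables, and that of Mettl27 did not.

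Among HXB/BXH strains whole-gene Mettl27 passed the strain test in both tables, and it was the only one of the 3 to do so in either. In v7.1 RefSeq its R2 was 0.813 (adjusted p = 2.08e-11), against 19.1% of all genes that passed. In v5 Ensembl its R2 was 0.771 (adjusted p = 8.78e-09), against 23.5%. Xpo1 (R2 0.438 and 0.472, adjusted p = 0.181 and 0.0877) and Ascc1 (R2 0.270 and 0.332, adjusted p = 0.866 and 0.607) did not pass. With batch as a covariate Xpo1 passed in v7.1 RefSeq (adjusted p = 0.0180), and without replicate 3 it passed in v5 Ensembl (adjusted p = 0.00458).

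The small whole-gene difference of Mettl27 placed HXB/BXH strains on both sides of its midpoint, where the large difference of its split feature did not. In v7.1 RefSeq 17 of 30 strains lay on the BN-Lx side of the whole-gene midpoint (56.7%, 95% Clopper-Pearson interval 37.4% to 74.5%), with strain means from 6.01 to 6.98 and none between 6.36 and 6.61. In v5 Ensembl the division was less clear, with strain means of 4.89 and 4.94 on either side of the midpoint and with animals on both sides in 8 strains, against 4 in v7.1 RefSeq. The same 17 and 13 strains were obtained from v7.1 RefSeq, from v5 Ensembl and from the v5 feature holding the reference transcript, 30 of 30 in each pair of tables. These tables were made largely from the same animals, and these sides were defined after the values were seen. Sides in the other whole genes changed between the tables. For Xpo1 0 of 30 strains lay on the BN-Lx side in v7.1 RefSeq and 29 of 30 in v5 Ensembl, and for Ascc1 11 and 27 of 30. BN-Lx/Cub was the lower progenitor for Xpo1 in v5 Ensembl and for Ascc1 in v7.1 RefSeq, so that there the BN-Lx side lay below the midpoint. Xpo1 strain means lay below the midpoint in 30 of 30 strains in v7.1 RefSeq (11.81) and in 29 of 30 in v5 Ensembl (11.88). For whole-gene Mettl27 the strains on the BN-Lx side were HXB1/Ipcv, HXB3/Ipcv, HXB7/Ipcv, HXB10/Ipcv, HXB13/Ipcv, HXB15/Ipcv, HXB17/Ipcv, HXB18/Ipcv, HXB20/Ipcv, HXB21/Ipcv, HXB22/Ipcv, HXB24/Ipcv, HXB27/Ipcv and HXB31/Ipcv, with BXH2/Cub, BXH8/Cub and BXH9/Cub. These were 14 of 20 HXB and 3 of 10 BXH strains (Fisher's exact test, two-sided p = 0.0562). BXH9/Cub, the strain of the animal with the high split-feature value, had the highest whole-gene mean in v7.1 RefSeq (6.98), whereas HXB21/Ipcv had the highest in v5 Ensembl (5.31, against 5.10 in BXH9/Cub).

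**Figure D4:**
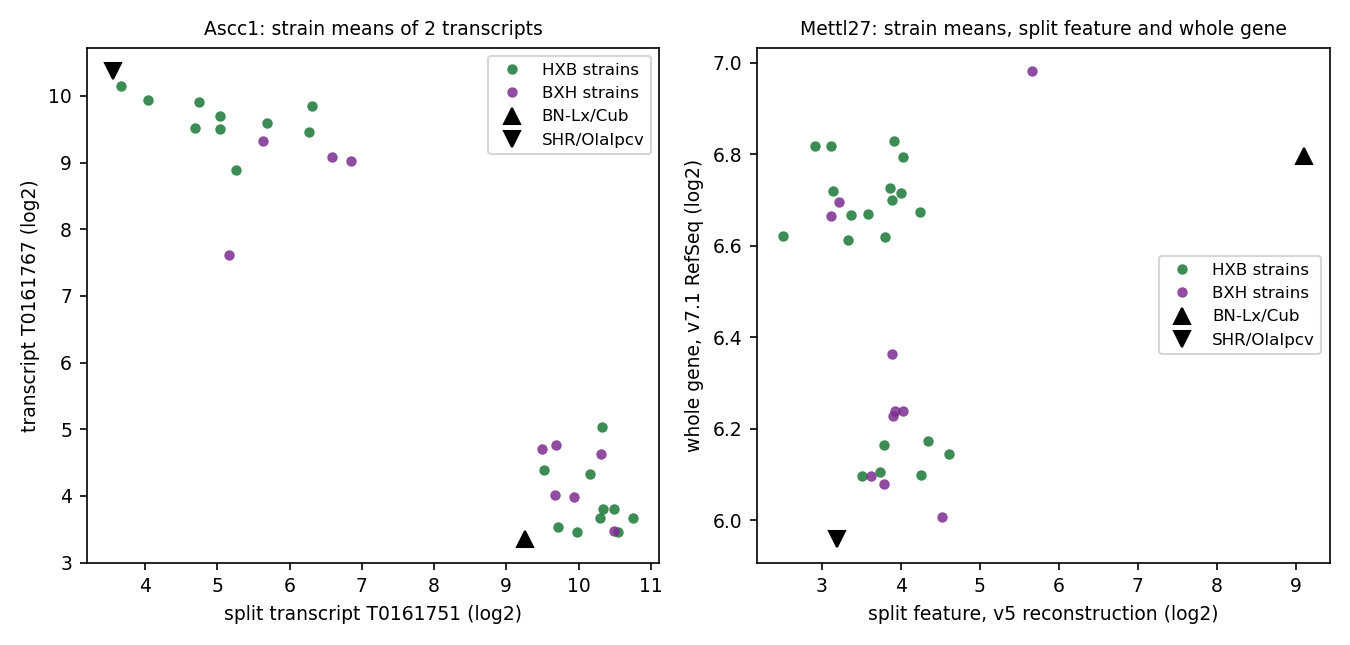
Strain means (log2) of the 20 HXB and 10 BXH strains (green and purple points) and of BN-Lx/Cub and SHR/OlaIpcv (black triangles pointing up and down). Left: the Ascc1 split transcript T0161751 against transcript T0161767, with none of the 30 strains between 5.03 and 7.61 on the y axis. Right: the Mettl27 split feature against the whole gene in v7.1 RefSeq, where 17 strains lie above and 13 below the gap from 6.36 to 6.61 while all 30 lie at or below 5.66 for the split feature.

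In the wider v7.1 panel whole-gene Mettl27 lay on the BN-Lx side in 18 of 19 FXLE/LEXF recombinant strains and in 19 of 23 classic strains. The exceptions were LEXF10A/Stm, COP/CrCrl, F344/NHsd, LE/Stm and SHRSP/A3NCrl. The strains with a high Mettl27 split feature did not share a side for the whole gene. COP/CrCrl was low in both v7.1 RefSeq and v5 Ensembl, F344/Stm was on the BN-Lx side in both, and LE/Stm was low in v7.1 RefSeq (1 animal) and on the BN-Lx side in v5 Ensembl (2 animals). The reference Brown Norway strain BN/NHsdMcwi and SHRSP/A3NCrl are relatives of the progenitors. None of the 3 whole genes differed between them by limma (0 of 3), where 3.02% of all genes passed. In that limma test 1 of the 3 had an unadjusted p under 0.05, for which no share of all genes is given here. Mettl27 had 6.62 ± 0.02 (SD, n = 3) in BN/NHsdMcwi and 6.21 ± 0.20 (n = 2) in SHRSP/A3NCrl, a difference of 0.41 ± 0.17 SE (adjusted p = 0.243). The differences of Xpo1 (-0.03 ± 0.14 SE) and Ascc1 (-0.08 ± 0.10 SE) lay within their errors.

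In the v7.1 reconstruction, Mettl27 was 1 feature, with 6.35 to 7.00 in 3 BN-Lx/Cub and 5.16 to 5.52 in 4 SHR/OlaIpcv animals. BN/NHsdMcwi had 6.31 to 6.41. Xpo1 was 1 feature of its own (11.7 to 11.9 in BN-Lx/Cub, 11.6 to 11.8 in SHR/OlaIpcv) and shared the name of another with Usp34 (13.1 to 13.4 against 13.0 to 13.3). None of the v7.1 reconstructed features used here carried the name Ascc1. Whole-gene Usp34 (R2 0.415, adjusted p = 0.300) and Spock2 (R2 0.447, adjusted p = 0.165) did not pass the HXB/BXH strain test in v7.1 RefSeq.

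The genes of the pathways around Xpo1, Ascc1 and Mettl27 were examined in v7.1 RefSeq as lists, beside a share of 19.1% of all genes with a strain effect among HXB/BXH strains. Of 19 nuclear export genes 1 had a strain effect among HXB/BXH strains, Nup214, a nucleoporin of the cytoplasmic face (adjusted p = 0.0404), and the median R2 of the list was 0.436 against 0.409 for all genes. Of 11 genes of the ASC-1 complex and ribosome quality control, 0 passed by limma with 2 at an unadjusted p under 0.05 (median R2 0.429). The share of all genes at that unadjusted threshold is not given here. Of 19 methyltransferase-like genes 7 passed (median R2 0.443), led by Mettl24 (R2 0.820, adjusted p = 4.63e-12), Mettl4 and Mettl9. Of 21 genes of the Williams-Beuren interval 6 passed (median R2 0.393), among them the tight junction gene Cldn4 (adjusted p = 0.000744), the membrane adaptor Lat2 (adjusted p = 0.00389) and the transcription factor Gtf2ird1 (adjusted p = 0.0258).

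Between the progenitors, 1 nuclear export gene, 1 ASC-1 gene and 1 methyltransferase-like gene were higher in BN-Lx/Cub and none of the lists held a lower one, against 2.63% of all genes higher and 1.87% lower. These were the nucleoporin Ranbp2 (0.62 ± 0.19 SE, adjusted p = 0.0314), the ASC-1 helicase Ascc3 (0.44 ± 0.13 SE, adjusted p = 0.0365) and Mettl24 (1.03 ± 0.21 SE, adjusted p = 0.000405), by limma with all strains in the fit. Ranbp2 and Ascc3 are named because of these counts, after their values were seen. Of the Williams-Beuren genes 0 passed by limma, with 6 at an unadjusted p under 0.05, a threshold for which no share of all genes is given here.

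Other v5 features near the split features were tested for a strain effect among HXB/BXH strains, which 10.4% of all v5 features showed. Within 250 kb, 1 of 9 features passed at Xpo1 (Zrsr1, a splicing factor relative, adjusted p = 0.0211), 1 of 11 at Mettl27 (Cldn4, adjusted p = 0.0423) and 2 of 9 at Ascc1. Both of the latter were named Ddit4, a stress-induced inhibitor of mTOR signalling (adjusted p = 0.00598 and 0.0174). Their correlations with the Ascc1 split feature over 30 strain means were 0.11 and -0.07.

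Over the 30 HXB/BXH strain means, the named features most like the Ascc1 split feature were all on chromosome 20. They were AABR07044914.1 (r = -0.85, 3.50 Mb away), the mitochondrial calcium uniporter Mcu (r = 0.85, 0.429 Mb) and Sowahc (r = -0.84, 0.759 Mb). For the Mettl27 split feature they were Zbed5 (r = 0.73), AABR07054578.1 (r = -0.71) and Tlcd2 (r = 0.71), of which Zbed5 lay on the same chromosome, 5.53 Mb away. For the Xpo1 split feature they were C1s (r = 0.68), Dmd (r = -0.67) and Fam173a (r = 0.66), all on other chromosomes. These are descriptions over the same 30 strains and libraries, and the last 2 sets were found for features whose own strain effect did not pass the test.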

How the data were processed

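Total brain RNA (ribosomal RNA depleted, stranded libraries, brains split sagittally) had been aligned by the authors with HISAT2 to strain-specific rn6 genomes that contained only SNPs, assembled per strain with StringTie under Ensembl 96 guidance, merged, and quantified with RSEM. RSEM divides reads among overlapping isoforms, and isoforms of low estimated count had been removed. The deposited v5 values are log2 values after removal of 1 unwanted factor and a regularized log transform. Values above 30, beyond the usual log2 range, numbered 37 in the v5 feature table (none in a feature named here), 96 in the v5 transcript table, 5 in v7.1 RefSeq, 27 in the v7.1 reconstruction and 0 in v5 Ensembl. The deposited v5 columns with the most extreme of these, made by the authors in the same way, were recorded as a score for that reason. They were analysed on the same scale, and 1 Ascc1 transcript (PRN6.5T0161776) held such values in classic strains, which entered no transcript test. Tool versions differed between samples in the submitters' processing notes (HISAT2 2.1.0 and 2.2.1, StringTie 1.3.5 and 2.2.1, RSEM 1.3.1 and 1.3.3). For the v7.1 tables, deposited on the same log2 scale, the genome build was not given in the sources used here. Depth is unknown, since no counts were used.

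Spike-in rows were left out (76 in v5 Ensembl, 73 in v7.1 RefSeq), libraries of 1 animal were averaged (214 libraries, 197 animals in v7.1 RefSeq), and 45 columns of the v7.1 reconstruction were not used. The v5 transcript table lacked BXH6/Cub 3 and BXH9/Cub 3. Sequencing batches were those of the labels' batch field, from which the titles differ in 26 samples. Strains came from the labels, replicate numbers do not pair animals, and p-values of strain effects measure the spread between animals within a strain, while those of HXB against BXH and of Fisher's tests rest on strains.

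limma 3.58.1 (R 4.3.3) was fitted to all features of each table, with a moderated F over 30 HXB/BXH strains, the same over 13 classic strains, HXB against BXH on strain means, and BN/NHsdMcwi against SHRSP/A3NCrl with all v7.1 strains. A call is a Benjamini-Hochberg adjusted p at a 5% false discovery rate over all features. Scripts were tested on simulated data. Sides, Fisher's exact tests and figures used Python 3.11.15 with pandas 2.3.3, numpy 2.4.6, scipy 1.17.1 and matplotlib 3.10.9. Every feature, transcript and gene with the name Xpo1, Mettl27 or Ascc1 was analysed, and those not described singly are given by counts and ranges. The split feature of a gene is its v5 feature of largest progenitor difference. Up to 4 called genes of lowest p are named per list, up to 3 features within 250 kb, and 3 features of highest absolute r per split feature. Members and lists were chosen with earlier results of these data known. Sides in whole genes and transcripts were added after the data were seen. Neighbouring genes came from RefSeq (GRCr8), whose coordinates were not used. Alternatives tried were a batch covariate, a replicate block, an intensity trend, a filter at the median, other side thresholds and leaving out libraries.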

Additional observations from a re-analysis of the deposited data

How the results depend on the processing

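A reversal of direction could not be scored, since the strain tests carry no direction and the signed contrasts called no member. Among summary results 69 alternatives were scored as unchanged, 3 as weaker, 2 as stronger and 2 as moved. A count near the reported one was scored as unchanged, such as 4 to 7 member features among classic strains (6 as reported). Among single features, transcripts and genes 863 kept the side of the threshold, 27 lost it and 13 gained it. Leaving out replicate numbers or doubted libraries gave 11 to 20 member transcripts with a strain effect (11 without replicate 1, against 19) and 1 to 2 whole genes in v5 Ensembl (2 without replicate 3, where Xpo1 was gained). With batch as a covariate 2 whole genes passed in v7.1 RefSeq. Restricting either whole-gene table to genes at or above the median left 0, because Mettl27 lay below it. With the midpoint of the highest and lowest HXB/BXH strain mean in place of the progenitor midpoint, the share on the upper side was 50% for Xpo1 and 20% for Mettl27, a threshold that divides any set of values, and with all other thresholds and left-out libraries it was 0% and 0% to 3.33%. For Ascc1 it was 53.3% to 60%. The HXB against BXH comparison called 0 members in 6 of 6 alternatives, and BN/NHsdMcwi against SHRSP/A3NCrl 0 in 9 of 9, where SHRSP/A3NCrl 1 was not in the table.

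With the replicate number as a block, 3 member features and 20 transcripts passed among HXB/BXH strains, and 1 whole gene passed in v7.1 RefSeq and in v5 Ensembl. The Ascc1 reference-holding feature (adjusted p = 0.0146) and the Xpo1 transcript PRN6.5T0132522 (adjusted p = 0.0464) were gained and the block changed no other call. Same-numbered animals of different strains were not paired: 239 of 1276 pairs (18.7%) correlated above 0.1, with a median r of 0.0292 against -0.0145 for other numbers, and 34 of 90 animals correlated best with their own number.

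Over whole tables the calls ranged from 3985 to 14018 for v5 features (10296 as reported), 5720 to 20042 for transcripts (15971), 1533 to 6694 for v7.1 RefSeq (3992), 1504 to 5135 for v5 Ensembl (4306), 1847 to 8754 among classic strains (8029), 114 to 775 for HXB against BXH (531) and 83 to 632 for BN/NHsdMcwi against SHRSP/A3NCrl (629). Causes were not tested.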
